A study of Mus musculus with 9 samples.

Results

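The genes described here encode nucleolar and ribosome assembly factors. The list of 41 such genes was drawn up by name, with earlier results of these data known, and for each gene the probe set with the highest average across the 9 arrays was read. Values were available for 40 of the 41, out of 18194 genes on the array with a probe set of their own. The probe set for Mrto4 is annotated to Mrto4 and to pseudogenes as well, so no value is given for Mrto4. All 40 passed the filter on low values, a log2 value of at least 4 on at least 3 arrays, as did 11274 genes in all.

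The samples were colonic mucosa of male mice aged 6 weeks, each hybridised to an Affymetrix expression array of 45101 probe sets. There were 3 groups of 3 arrays, all on the C57BL/6 background. The hGAS group carried the hGas transgene, the GasKO group was Gas-/-, and the WT group carried neither change. The promoter of the transgene and the cells that express it are not given in the labels. The labels number the replicates without saying that each was a separate mouse, so the p-values given here measure a spread between samples that may be technical.

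Ribosomes are assembled in the nucleolus, where RNA polymerase I transcribes the ribosomal RNA precursor. Small nucleolar ribonucleoproteins (snoRNPs) guide the chemical modification of that precursor, box C/D particles by ribose methylation and box H/ACA particles by pseudouridylation. Assembly factors then cut and fold it with ribosomal proteins into the small and the large subunit, and many of these factors are encoded by genes that the transcription factor MYC is known to bind. In the intestine, nucleoli and ribosome production are most prominent in the dividing cells at the crypt base.

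Part of the ribosome biogenesis genes fell in GasKO mucosa, set against WT mucosa. With limma, a linear model for arrays with Benjamini-Hochberg adjustment over the 11274 genes tested, 14 of the 40 genes fell at an adjusted p under 0.05 and none rose. That is 35.0% of the genes on the list, where 5.48% of all genes tested fell in GasKO mucosa and 6.63% rose (12.1% in either direction). The called genes were spread over the pathway: Nolc1 and Ddx21 among nucleolar proteins, Fbl, Nop56 and Nop58 of the box C/D particle, Dkc1 and Gar1 of the box H/ACA particle, Utp4, Ltv1 and Nob1 of the small subunit, and Bop1, Wdr12, Ppan and Gnl3 of the large subunit. Their decreases ran from 1.15-fold (Dkc1) to 1.45-fold (Nolc1). The other 26 genes did not pass the test. Because the tissue was measured in bulk, fewer cells of a type and less RNA per cell cannot be told apart.

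Over the 40 genes, the median log2 difference, GasKO minus WT, was -0.24, and over all genes tested it was 0.01. The difference was below 0 for 38 of the 40 genes, against 48.2% of all genes tested, and the 2 exceptions were Ncl and Npm1. On 27 of the 40 genes (67.5%) every GasKO array lay below every WT array, an ordering found for 15.0% of all genes tested. No gene on the list had every GasKO array above every WT array, where 16.1% of all genes did. The mean level of the 40 genes ran from 8.14 to 8.22 on the hGAS arrays, from 7.99 to 8.01 on the GasKO arrays and from 8.17 to 8.32 on the WT arrays, so the GasKO arrays lay apart from both other groups. The mean over all genes tested differed far less, at 8.07 to 8.08 in hGAS, 8.07 to 8.09 in GasKO and 8.05 to 8.06 in WT.

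**Figure D1:**
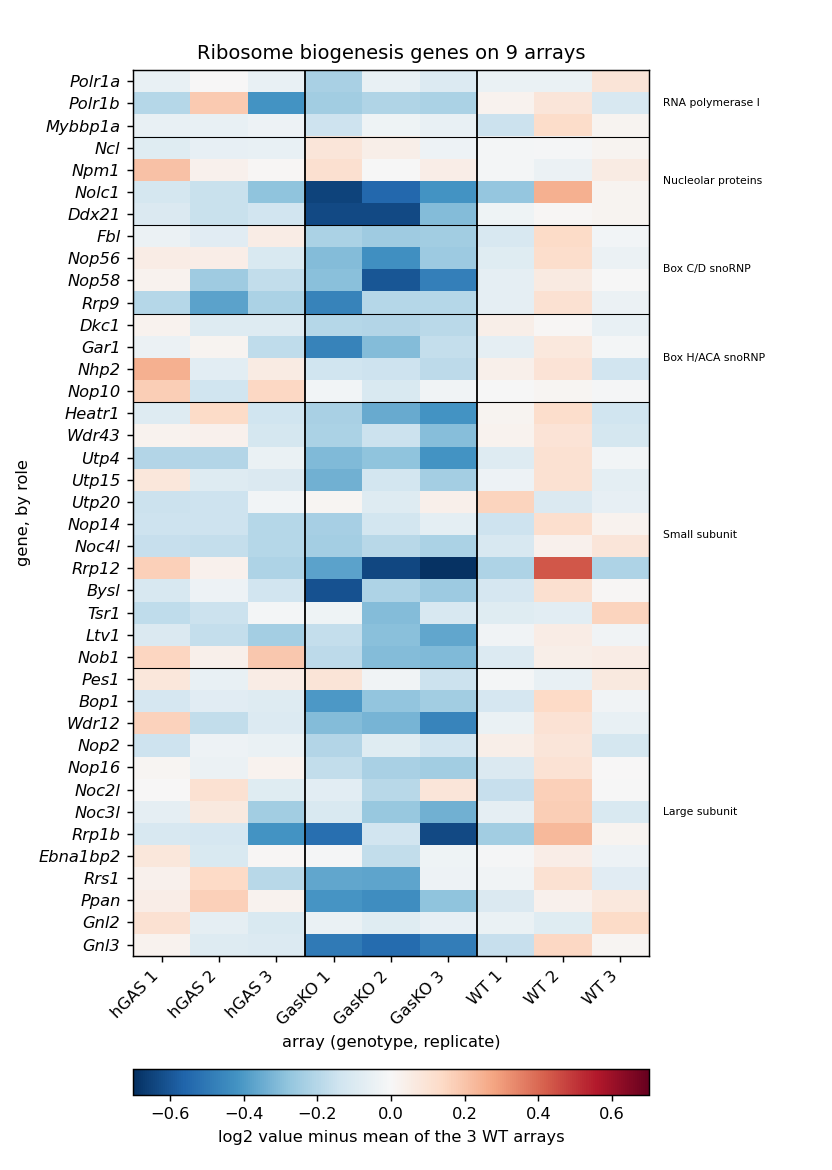
Log2 value of each of the 40 genes (rows, grouped by role) on each of the 9 arrays (columns, 3 hGAS, 3 GasKO and 3 WT), minus the mean of the 3 WT arrays. Blue is below the WT mean and red above it; the GasKO columns are blue for 36, 39 and 37 of the 40 genes.

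Set against the WT mean gene by gene, 36, 39 and 37 of the 40 genes were lower on the 3 GasKO arrays, with medians of -0.23, -0.21 and -0.23. On the hGAS arrays 21, 27 and 31 genes were lower, with medians of -0.04, -0.07 and -0.09. The WT arrays themselves were not uniform: 33, 7 and 23 genes lay below the WT mean on WT 1, WT 2 and WT 3, and WT 2 was the highest of the 9 arrays for 21 of the 40 genes. The lowest of the 9 arrays was a GasKO array for 33 genes, shared almost evenly over GasKO 1 (10 genes), GasKO 2 (11) and GasKO 3 (12). The 40 genes had a median within-group SD of 0.0973, close to the 0.105 of all genes tested, while their median absolute difference between GasKO and WT was 0.235, against 0.109 for all genes.

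The RefSeq table of promoters (build GRCm38.p6, 250 bases before to 50 bases after each start) held 34 of the 40 genes. Upstream stretches of the pair of large-subunit genes whose hGAS and GasKO values differed with the smallest p-values are shown first, a choice made after the values were seen, because both genes were lowest in GasKO while their promoters differ in makeup. Gnl3 encodes nucleostemin, a nucleolar GTP-binding protein, and its 250 bases lie at chr14:31019132-31019381 on the minus strand. Ppan encodes a large-subunit assembly factor, and its 250 bases lie at chr9:20887925-20888174 on the plus strand. Both are printed 5′ to 3′, and the capitals mark overlapping matches to the TATA-box string, TATAAA, on both strands. They are matches of letters that do not show a working TATA box, and their distance from the start was not weighed.
Gnl3: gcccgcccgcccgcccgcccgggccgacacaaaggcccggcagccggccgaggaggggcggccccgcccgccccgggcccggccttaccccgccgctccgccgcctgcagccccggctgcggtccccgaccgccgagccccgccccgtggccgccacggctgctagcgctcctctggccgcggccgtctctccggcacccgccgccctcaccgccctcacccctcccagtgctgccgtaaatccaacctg
Ppan: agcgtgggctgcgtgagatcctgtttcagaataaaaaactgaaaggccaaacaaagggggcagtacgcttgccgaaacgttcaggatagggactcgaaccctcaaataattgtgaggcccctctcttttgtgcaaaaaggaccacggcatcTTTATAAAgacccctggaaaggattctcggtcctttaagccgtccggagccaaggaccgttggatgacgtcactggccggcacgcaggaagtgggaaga
The Gnl3 stretch was 81.6% G and C and held none of the motifs searched, while that of Ppan was 52.0% G and C. Nothing about any factor follows from a motif that is absent from this window.

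The 5 motifs were searched on both strands of each entry, and a gene was counted if any of its listed starts held the motif. The MYC-type E-box, CACGTG, was present in 8 of the 34 genes (23.5%), against 11.7% of the 9126 tested genes with a promoter and 8.09% of all 27025 genes in the table. It was present in 2 of the 12 genes that fell in GasKO mucosa and in 6 of the 22 that did not pass the test. The ETS-like motif CCGGAAG was present in 12 of the 34 (35.3%), against 20.2% of tested genes and 9.93% of all genes, in 5 of the 12 genes that fell and in 7 of the 22 others. CCAAT was held by 29.4% of the 34 promoters, against 42.7% of tested genes, and TATAAA by 8.82%, against 9.30%. The palindromic CGCG element was held by none of the 34 and by 1.15% of tested genes. The 8 E-box windows follow, with the E-box in capitals and each read 5′ to 3′ on the strand of its gene, so that their closeness to the start can be seen beside the values. These matches are a description of sequence and not evidence of binding.
Ltv1, chr10:13193092-13193121, minus strand: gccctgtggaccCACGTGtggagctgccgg
Utp4, chr8:106893643-106893672, plus strand: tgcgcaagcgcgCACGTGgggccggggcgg
Mybbp1a, chr11:72441355-72441376, plus strand: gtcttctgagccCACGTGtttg
Nop2, chr6:125131811-125131840, plus strand: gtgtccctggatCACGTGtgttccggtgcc
Pes1, chr11:3963965-3963994, plus strand: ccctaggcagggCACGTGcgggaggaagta
Tsr1, chr11:74898092-74898121, plus strand: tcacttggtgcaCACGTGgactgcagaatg
Utp20, chr10:88826765-88826789, minus strand: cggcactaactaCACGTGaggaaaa
Wdr43, chr17:71616220-71616249, plus strand: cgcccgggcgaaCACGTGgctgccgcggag
Of these 8 genes, Ltv1 and Utp4 fell in GasKO mucosa. The E-box of 7 of the 8 genes began after the start of the gene, between 3 bases (Pes1) and 41 bases (Mybbp1a) from it, and that of Nop2 lay 60 bases before it.

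Among the RNA polymerase I genes, none of the 3 passed the test, nor did any at an unadjusted p under 0.05. Polr1a, which encodes the largest subunit of the enzyme, read 6.11, 6.16 and 6.11 on the hGAS arrays, 5.93, 6.11 and 6.07 on the GasKO arrays and 6.12, 6.12 and 6.25 on the WT arrays. Polr1b, another core subunit, was tight in GasKO (6.63, 7.01 and 6.41 in hGAS, 6.59, 6.62 and 6.60 in GasKO, 6.85, 6.91 and 6.71 in WT). For both genes every GasKO array lay below every WT array, but the adjusted p was 0.358 for Polr1a and 0.332 for Polr1b. Mybbp1a, a nucleolar regulator of ribosomal RNA transcription, differed by -0.08 on the probe set used (adjusted p = 0.543) and by -0.39 on its other probe set (adjusted p = 0.0169 over all probe sets), so its probe sets disagreed.

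The nucleolar proteins split into a pair that fell and a pair that did not. Nolc1, which encodes a chaperone of snoRNPs that shuttles between nucleolus and cytoplasm, had log2 values of 7.67, 7.64 and 7.52 in hGAS, 7.15, 7.25 and 7.38 in GasKO and 7.53, 8.04 and 7.82 in WT. All GasKO arrays lay below all others, and WT 2 stood above the other WT arrays. The GasKO mean of 7.26 ± 0.11 was 1.45-fold below the WT mean of 7.80 ± 0.26 (SD, n = 3 each; log2 difference -0.54, SE 0.123, limma adjusted p = 0.0197). The call was lost without GasKO 1, GasKO 2, WT 2 or WT 3, and with the GasKO and WT arrays fitted alone.

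Ddx21, an RNA helicase that acts in both ribosomal RNA transcription and processing, read 8.56, 8.51 and 8.53 in hGAS, 8.03, 8.03 and 8.36 in GasKO and 8.64, 8.67 and 8.68 in WT. The 3 groups did not overlap, and GasKO 3 lay nearer to the other groups than GasKO 1 and GasKO 2 did. The log2 difference was -0.52 between GasKO and WT (SE 0.0864, adjusted p = 0.00385) and 0.39 between hGAS and GasKO (adjusted p = 0.0137). The second Ddx21 probe set differed by only -0.15 between GasKO and WT (adjusted p = 0.28 over all probe sets). With both probe sets averaged, Ddx21 still passed between GasKO and WT at -0.34 but not between hGAS and GasKO, at 0.20 (adjusted p = 0.0613).

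Ncl, which encodes nucleolin, and Npm1, which encodes nucleophosmin, are abundant scaffold proteins of the nucleolus. Ncl read 11.97, 12.00 and 12.00 in hGAS, 12.14, 12.10 and 12.02 in GasKO and 12.04, 12.05 and 12.08 in WT, with a GasKO minus WT difference of 0.03 (adjusted p = 0.689). Ncl was the only gene on the list with every hGAS array below every GasKO array, though that difference of -0.09 did not pass the test (adjusted p = 0.142). Npm1 differed by 0.05 between GasKO and WT (adjusted p = 0.628), with overlapping groups.

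Of the 4 box C/D genes, 3 fell in GasKO mucosa. Nop58, a core protein of the particle, had values of 8.84, 8.57 and 8.65 in hGAS, 8.52, 8.22 and 8.34 in GasKO and 8.76, 8.88 and 8.82 in WT. The GasKO arrays lay below all other arrays. Its mean was 8.36 ± 0.15 in GasKO and 8.82 ± 0.06 in WT (SD, n = 3 each), a log2 difference of -0.46 (adjusted p = 0.0116). Nop56, the partner of Nop58 in the same core, read 8.77, 8.76 and 8.61 in hGAS, 8.41, 8.29 and 8.46 in GasKO and 8.63, 8.84 and 8.67 in WT. Again no GasKO array reached any array of the other groups, and the hGAS and WT means nearly coincided at 8.71 and 8.72. Nop56 fell by 0.33 in GasKO mucosa on the probe set used (adjusted p = 0.0233) and by 0.66 on its second probe set (adjusted p = 0.00753 over all probe sets). The Nop56 call against WT was lost without GasKO 1, GasKO 2 or WT 2.

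Fbl encodes fibrillarin, the ribose methyltransferase of the particle. It read 9.74, 9.71 and 9.84 in hGAS, 9.56, 9.53 and 9.54 in GasKO and 9.67, 9.92 and 9.77 in WT. All GasKO arrays lay below all others with an SD of 0.01, and the difference from WT was -0.24 (adjusted p = 0.0448). Among the 9 fits that left out 1 array each, 1 kept this call, and it was kept in 8 of 20 alternatives in all. On the second Fbl probe set the difference was -0.33 (adjusted p = 0.00725 over all probe sets). Rrp9, a protein of a box C/D particle, read 4.95, 4.78 and 4.93 in hGAS, 4.68, 4.95 and 4.95 in GasKO and 5.09, 5.26 and 5.11 in WT. Both hGAS and GasKO arrays lay below all WT arrays, by -0.27 and -0.29 on average, and neither difference passed the test (adjusted p = 0.285 and 0.115).

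The box H/ACA particle has 4 core proteins, all on the list. Dkc1, its pseudouridine synthase, read 9.34, 9.22 and 9.22 in hGAS, 9.11, 9.11 and 9.12 in GasKO and 9.35, 9.32 and 9.26 in WT. With GasKO arrays lowest and nearly identical, Dkc1 fell by 0.20 (adjusted p = 0.0344), a call lost without any 1 of the GasKO arrays, WT 1 or WT 2. Gar1 read 8.61, 8.67 and 8.47 in hGAS, 8.18, 8.34 and 8.48 in GasKO and 8.59, 8.72 and 8.64 in WT. All GasKO arrays of Gar1 were below all WT arrays, GasKO 3 overlapped the hGAS group, and the difference from WT was -0.31 (adjusted p = 0.0433), kept in 3 of the 9 fits without 1 array. Nhp2 differed by -0.16 (adjusted p = 0.279) and Nop10 by -0.05 (adjusted p = 0.727), and in both genes every GasKO array was nevertheless below every WT array.

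**Figure D2:**
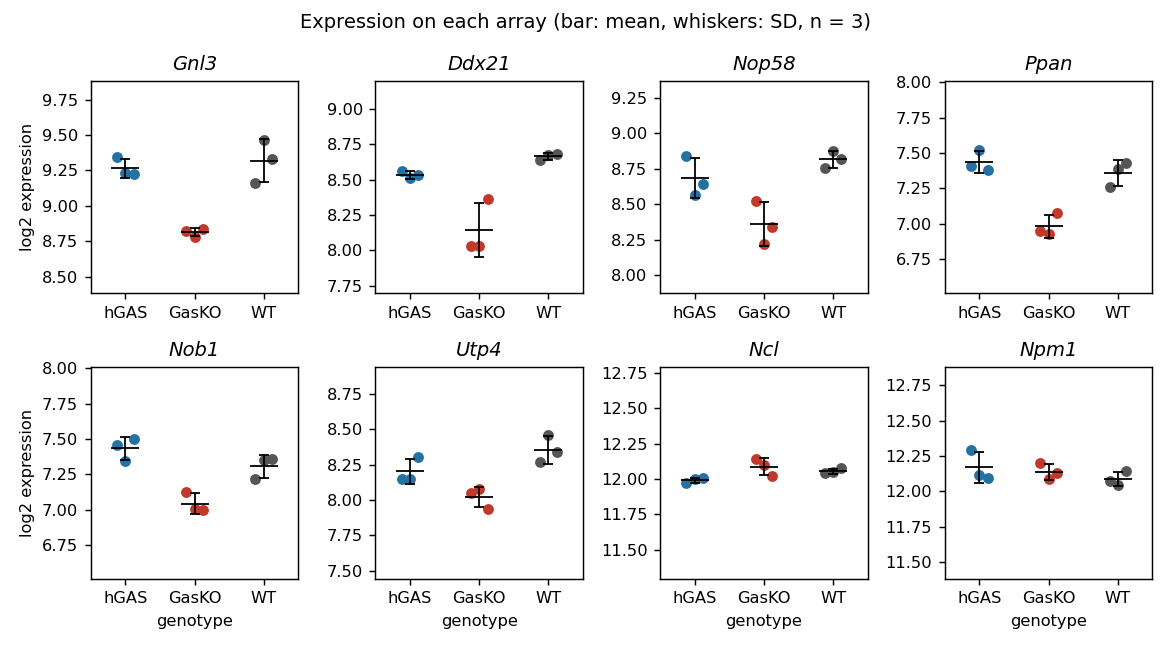
Log2 expression of 8 genes on each array, grouped as hGAS, GasKO and WT, with the mean (bar) and SD (whiskers, n = 3). Each vertical axis spans the same number of log2 units; the GasKO points of Gnl3, Ddx21, Nop58, Ppan, Nob1 and Utp4 lie below all other points of their panel, and those of Ncl and Npm1 do not.

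For the small subunit, 3 of 12 genes fell in GasKO mucosa, and all 12 differences were below 0 (median -0.25). Utp4, part of the complex that first joins the ribosomal RNA precursor, read 8.15, 8.15 and 8.31 in hGAS, 8.05, 8.07 and 7.94 in GasKO and 8.27, 8.46 and 8.34 in WT. Every GasKO array was below all others, hGAS 3 reached into the WT range, and the log2 difference between GasKO and WT was -0.33 (SE 0.0749, adjusted p = 0.0179). Without GasKO 3 or WT 2 the Utp4 call was lost. Ltv1, which acts late on the nearly finished subunit, read 8.72, 8.65 and 8.59 in hGAS, 8.65, 8.53 and 8.46 in GasKO and 8.80, 8.87 and 8.80 in WT. Here both hGAS and GasKO arrays lay below all WT arrays, and the difference was called for GasKO only (-0.27, adjusted p = 0.0239; hGAS minus WT -0.17, adjusted p = 0.276). The Ltv1 difference between hGAS and GasKO was 0.11 (adjusted p = 0.313), so the genotypes were not shown to differ from each other. The Ltv1 call was lost without GasKO 2, GasKO 3, WT 1 or WT 2.

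Nob1 encodes the endonuclease that makes the final cut in the small-subunit ribosomal RNA. It read 7.46, 7.35 and 7.50 in hGAS, 7.13, 7.00 and 7.00 in GasKO and 7.21, 7.35 and 7.36 in WT. The GasKO arrays were the 3 lowest, while the hGAS group reached above the WT group. Nob1 was 1.31-fold higher in hGAS than in GasKO mucosa (log2 0.39, adjusted p = 0.0069), a call kept in all 20 alternatives. With 1 probe set for Nob1, settings that change the probe set could not alter its values. Between GasKO and WT the difference was -0.27 (adjusted p = 0.0497), a call kept in 9 of 20 alternatives.

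The remaining 9 small-subunit genes did not pass between GasKO and WT. Of the early factors, Heatr1 read 7.14, 7.36 and 7.09 in hGAS, 7.00, 6.88 and 6.81 in GasKO and 7.25, 7.35 and 7.09 in WT, with a GasKO minus WT difference of -0.33 (adjusted p = 0.0623). On its other probe set that passed the filter, Heatr1 differed by -0.63 (adjusted p = 0.0149 over all probe sets). Wdr43 (-0.22, adjusted p = 0.102) and Utp15 (-0.23, adjusted p = 0.115) likewise had every GasKO array below every WT array. So did Bysl, which acts in the later maturation of the small subunit (-0.36, adjusted p = 0.0685) and Noc4l (-0.22, adjusted p = 0.0702). The other 3 Noc4l probe sets gave 0.05, -0.05 and -0.24, and none of them passed the test.

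Rrp12, known in yeast as a factor in the export of ribosomal subunits, had the lowest estimate on the list in GasKO mucosa, -0.57 against WT, on a weakly hybridising probe set. Its GasKO arrays read 4.84, 4.57 and 4.52, all lower than any hGAS or WT array, WT 2 stood above the other WT arrays at 5.65, and the adjusted p was 0.0811. Nop14 (-0.14), Tsr1 (-0.15) and Utp20 (-0.01) completed the group, with adjusted p between 0.326 and 0.939.

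For the large subunit, 4 of 13 genes fell in GasKO mucosa, and all 13 differences were below 0 (median -0.24). Gnl3 read 9.34, 9.23 and 9.22 in hGAS, 8.83, 8.78 and 8.83 in GasKO and 9.16, 9.46 and 9.33 in WT. The GasKO arrays lay within a narrow band below all others, and the hGAS and WT arrays overlapped. The hGAS mean was 9.27 ± 0.07, the GasKO mean 8.81 ± 0.03 and the WT mean 9.32 ± 0.15 (SD, n = 3 each). The difference of -0.50 between GasKO and WT had a 95% interval of -0.68 to -0.33 (adjusted p = 0.00229), and that of 0.45 between hGAS and GasKO had an adjusted p of 0.0034. Between hGAS and WT the difference was -0.05, with an interval of -0.22 to 0.12.

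Ppan read 7.40, 7.52 and 7.38 in hGAS, 6.95, 6.92 and 7.07 in GasKO and 7.26, 7.39 and 7.43 in WT. The GasKO arrays were the 3 lowest, and the hGAS mean of 7.44 ± 0.08 was slightly above the WT mean of 7.36 ± 0.09 (difference 0.08, 95% interval -0.09 to 0.25). Ppan was 1.37-fold higher in hGAS than in GasKO mucosa (adjusted p = 0.00365) and 1.30-fold lower in GasKO than in WT mucosa (adjusted p = 0.012). Both Ppan calls and, where its probe set entered, both Gnl3 calls were kept in every alternative. Each of these genes has 1 probe set, so settings that change the probe set could not alter its values.

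Pes1, Bop1 and Wdr12 encode the 3 proteins of a single complex needed to mature the large-subunit ribosomal RNA. Differences between the 3 genes were not tested. Bop1 read 8.14, 8.18 and 8.17 in hGAS, 7.85, 7.98 and 8.01 in GasKO and 8.14, 8.40 and 8.23 in WT. Wdr12 read 6.81, 6.47 and 6.55 in hGAS, 6.34, 6.32 and 6.18 in GasKO and 6.60, 6.74 and 6.59 in WT. In both, the GasKO arrays lay below all other arrays, and the differences from WT were -0.31 for Bop1 (adjusted p = 0.0296) and -0.36 for Wdr12 (adjusted p = 0.045). Pes1 read 8.10, 7.97 and 8.08 in hGAS, 8.11, 8.00 and 7.88 in GasKO and 8.01, 7.97 and 8.09 in WT, fully overlapping, with a difference of -0.03 (adjusted p = 0.856). The second Bop1 probe set showed no difference (0.00, adjusted p = 0.992 over all probe sets). Averaging the probe sets of each gene gave -0.15 for Bop1 (adjusted p = 0.155) and -0.19 for Wdr12 (adjusted p = 0.0772), so neither was then called. The Wdr12 average takes in a probe set with a mean of 2.62, below the filter, and on its other probe set above the filter Wdr12 differed by -0.22 (adjusted p = 0.151 over all probe sets). Bop1 kept its call in 4 and Wdr12 in 2 of the 9 fits without 1 array.

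The other 8 large-subunit genes did not pass the test in any comparison. Nop16 came closest, at 7.91, 7.86 and 7.93 in hGAS, 7.73, 7.68 and 7.66 in GasKO and 7.80, 8.00 and 7.90 in WT. Its GasKO arrays lay below all other arrays, with an adjusted p of 0.0679 against WT and 0.0552 between hGAS and GasKO. Rrp1b (-0.43), Rrs1 (-0.26), Noc3l (-0.24) and Nop2, a ribosomal RNA methyltransferase (-0.14), had adjusted p-values between 0.128 and 0.277 for GasKO minus WT. Ebna1bp2 (-0.07), Gnl2, a nucleolar relative of Gnl3 (-0.06), and Noc2l (-0.06) were the nearest to 0 after Pes1 on the probe sets used. The other 2 Gnl2 probe sets gave -0.27 and -0.44 (adjusted p = 0.142 and 0.0844 over all probe sets), so its probe sets disagreed.

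**Figure D3:**
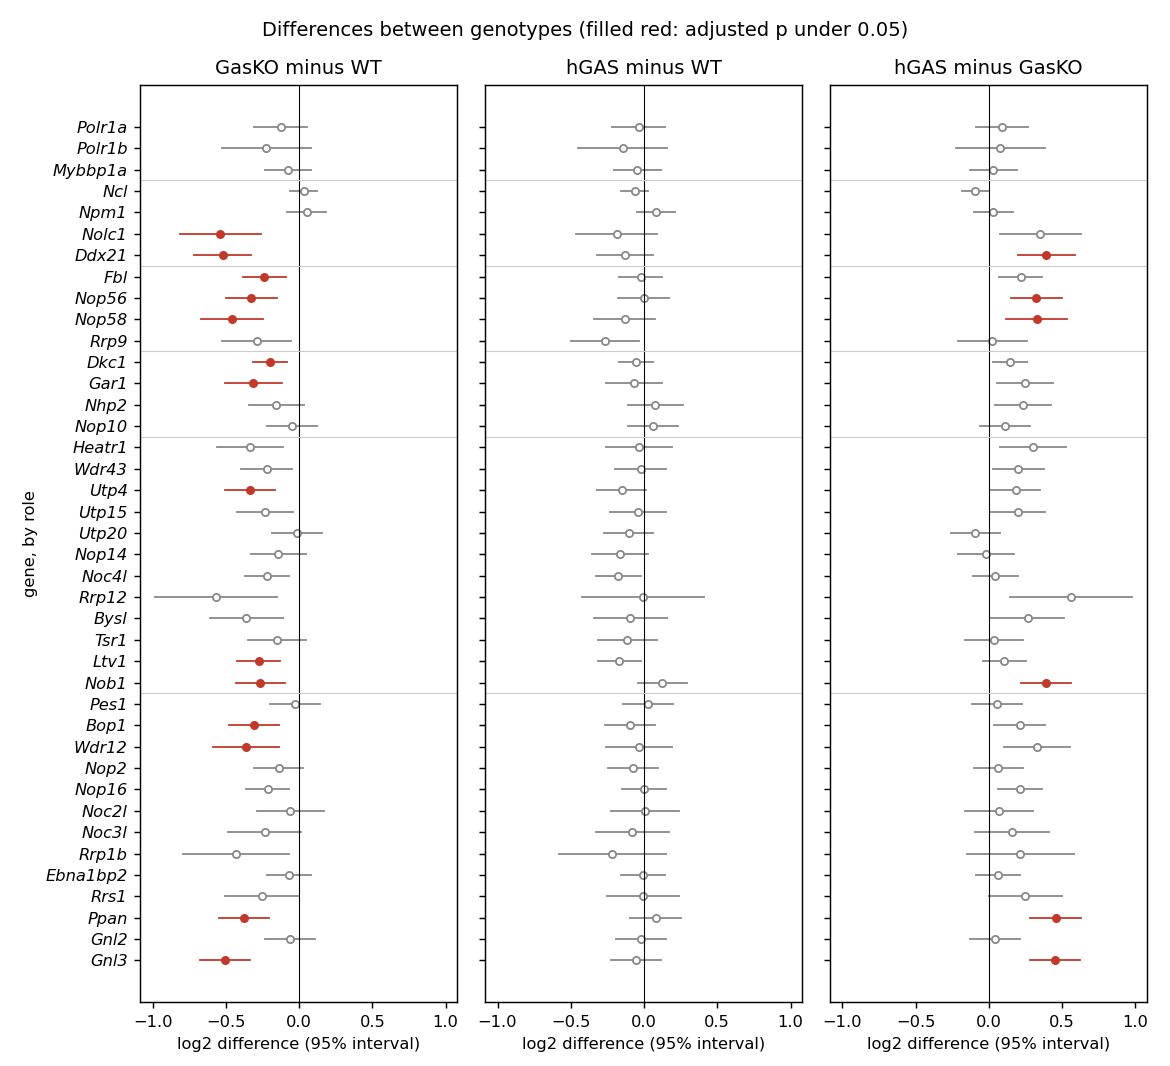
Log2 difference and 95% interval for each of the 40 genes, in order of role, for GasKO minus WT, hGAS minus WT and hGAS minus GasKO. Filled red points passed limma at an adjusted p under 0.05: 14 below 0 in the first panel, none in the second and 6 above 0 in the third.

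Where a gene had further probe sets that passed the filter, these gave a second reading of the same arrays. There were 33 such probe sets for 25 of the genes, and 28 of them (84.8%) had a GasKO minus WT difference below 0, against 49.6% of the 19834 probe sets tested. Their median was -0.21, and 5 (15.2%) passed the test as lower in GasKO, those of Nolc1, Fbl, Nop56, Heatr1 and Mybbp1a, where 5.27% of all probe sets did. None passed as higher. Of the 14 genes that fell, 7 rested on a single probe set.

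Between hGAS and WT mucosa, none of the 40 genes passed limma at an adjusted p under 0.05 (lowest 0.276, Ltv1), in a comparison in which 1.16% of all genes did, 0.523% as lower and 0.639% as higher. At an unadjusted p under 0.05 there were 3 of the 40, Rrp9, Noc4l and Ltv1, each lower in hGAS, against 14.2% of all genes tested. The median difference was -0.05, against 0.01 for all genes, and 33 of the 40 differences were below 0, against 47.2% of all genes. Every hGAS array lay below every WT array for 5 genes (Ncl, Ddx21, Rrp9, Noc4l and Ltv1), against 8.36% of all genes, and for none was the order the opposite. The 95% intervals of the 40 differences reached no lower than -0.58 (Rrp1b) and no higher than 0.41 (Rrp12). A difference that misses the threshold does not show that the levels were equal.

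Between hGAS and GasKO mucosa, 6 of the 40 genes rose and none fell. They were Ddx21, Nop56, Nop58, Nob1, Ppan and Gnl3, which are 15.0% of the list, where 8.05% of all genes tested rose and 8.51% fell (16.6% in either direction). This contrast is also the test of whether the hGAS and GasKO differences from WT differ from each other. The median difference, hGAS minus GasKO, was 0.19, against 0.00 for all genes, and 37 of the 40 were above 0. Every hGAS array lay above every GasKO array for 19 genes, against 18.2% of all genes, and below for 1 gene, against 18.4%. All 6 were also among the 14 that fell in GasKO against WT, and both comparisons use the same GasKO arrays. The Nop58 difference of 0.33 (adjusted p = 0.0421) was kept in 10 of 20 alternatives, and that of Nop56 (0.32, adjusted p = 0.02) was lost without GasKO 1, GasKO 2, hGAS 1 or hGAS 2. Ddx21 was lost without GasKO 1 and with probe sets averaged. With the replicate numbers of the labels as a block, 8 genes rose: the same 6, Heatr1 (adjusted p = 0.0415, against 0.0717 without the block) and Wdr43 (adjusted p = 0.046, against 0.11).

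The F test over the 3 genotypes called 9 of the 40 genes, Nolc1, Ddx21, Nop56, Nop58, Utp4, Ltv1, Nob1, Ppan and Gnl3, where it called 15.8% of all genes tested. By group mean, 30 of the 40 genes had the order GasKO lowest, hGAS between and WT highest, an order that 15.9% of all genes showed. A further 6 genes had GasKO lowest and hGAS highest, against 21.7% of all genes. Of the 14 genes that fell in GasKO, 12 had hGAS between, and Nob1 and Ppan had hGAS highest. Since no gene passed between hGAS and WT, the order of these neighbouring means was not shown to exceed the spread of the arrays.

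The wider pathway was read from lists of other genes that do not overlap with the 41. Beside them, 5.48% of all genes tested fell in GasKO mucosa and 6.63% rose. Other small-subunit factors fell in GasKO mucosa in 9 of 44 cases and rose in none (median -0.11). Utp11, an early processome factor, read 9.72, 9.51 and 9.73 in hGAS, 9.06, 8.85 and 8.99 in GasKO and 9.76, 9.79 and 9.81 in WT, a GasKO minus WT difference of -0.82 (adjusted p = 8.65e-05). Its other probe sets gave -0.28 (adjusted p = 0.117) and -0.05 (adjusted p = 0.734), so the size rests on the probe set. Rcl1 (-0.51), Tsr2 (-0.44) and Utp18 (-0.46) were the next by p-value. Among other large-subunit factors 5 of 46 fell and none rose (median -0.17), led by Sdad1 (-0.49, adjusted p = 0.00158), Nifk (-0.47), Wdr74 (-0.29) and Ddx27 (-0.36).

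Of 13 further RNA polymerase I factors, 2 fell, the initiation factor Rrn3 (-0.40, adjusted p = 0.0165) and the subunit Polr1e (-0.43, adjusted p = 0.0456). Of 12 genes of the RNA exosome and nucleases, which trim ribosomal RNA precursors, 2 fell, Exosc9 (-0.48) and Exosc10 (-0.23). None of 7 snoRNP assembly genes passed the test (median -0.15). At an unadjusted p under 0.05 there were 4, against 25.9% of all genes tested. Naf1 (-0.18), Ruvbl2 (-0.16) and Znhit3 (-0.34) were lower in GasKO, and Pih1d1 was higher (0.20). None of these lists had a gene that rose in GasKO mucosa. Between hGAS and GasKO, 4 of 44 other small-subunit factors, 3 of 46 other large-subunit factors and 2 of 12 exosome and nuclease genes rose, where 8.05% of all genes tested did, so the shares of the subunit factors were near that of all genes. Between hGAS and WT, 1 gene of these lists passed, Rcl1, which fell by 0.43 (adjusted p = 0.0348).

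Genes for the structural proteins of the ribosome had medians nearer to 0, though most of their differences were also below 0. Their mean levels were far above that of the listed biogenesis genes, and whether such strong signals compress differences was not tested. Among the probe sets that read lowest in these lists, the GasKO minus WT differences were mixed. Rpl12 (-0.25) and Rpl14 (-0.25) did not pass the test. Rpl27a (-0.08), Rpl37 (-0.09), Rpl39 (-0.03) and Rps25 (-0.03) lay nearer to 0, and Rps6 is given below. Of 22 large ribosomal protein genes tested, 1 fell in GasKO (Rpl13a, -0.23, adjusted p = 0.0179), and the median was -0.06. The difference was below 0 for 20 of the 22, against 48.2% of all genes tested. Their mean level was 12.22 to 12.29 in hGAS, 12.19 to 12.20 in GasKO and 12.24 to 12.31 in WT. Of 21 small ribosomal protein genes tested, 1 fell, Rps6, and the median was -0.04. In this list 16 of 21 differences were below 0. Its mean level, which takes in Rps6, was 13.04 to 13.12 in hGAS, 12.97 to 12.98 in GasKO and 13.05 to 13.12 in WT. With 5.48% of all genes tested falling in GasKO mucosa, 1 call in each list was near that share. The probe set of Rps6 read 9.11, 9.11 and 9.18 in hGAS, 7.73, 7.87 and 7.81 in GasKO and 9.26, 9.25 and 9.28 in WT, a 2.76-fold decrease in GasKO (adjusted p = 2.68e-07). Its only other probe set read between 2.62 and 2.63 in every group mean, below the filter, so it gave no second reading. The Rps6 probe set used averaged 8.74 over the 9 arrays, far below the mean level of its list. What part of the Rps6 transcripts it reads is not known, so the size rests on this probe set. Many ribosomal protein genes have near-identical pseudogenes, and 22 of the 47 large and 23 of the 33 small ribosomal protein genes listed could be matched to probe sets of 1 gene.

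**Figure D4:**
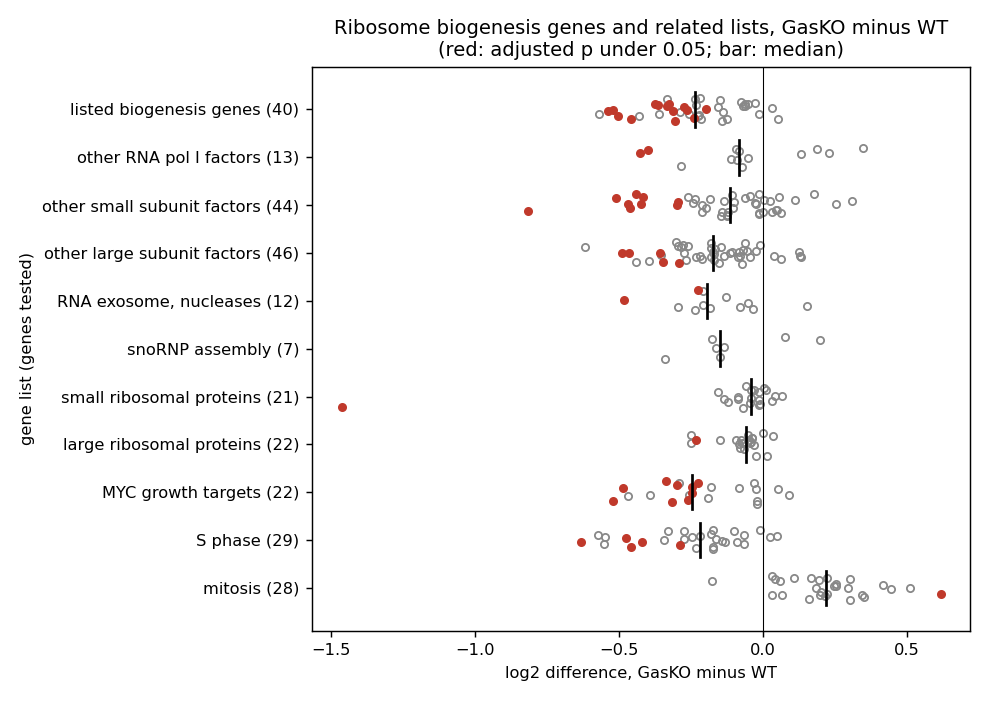
Log2 difference, GasKO minus WT, of each tested gene of the ribosome biogenesis list and of related lists (vertical axis, number of genes tested in brackets). Red points passed limma at an adjusted p under 0.05, and the black bar is the median: -0.24 for the listed biogenesis genes, -0.04 and -0.06 for small and large ribosomal proteins, -0.22 for S phase and 0.22 for mitosis.

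MYC is a transcription factor known to drive ribosome production. Myc read 7.30, 7.07 and 7.08 in hGAS, 6.85, 6.56 and 6.87 in GasKO and 7.00, 7.17 and 7.42 in WT. The GasKO arrays were the 3 lowest, and the difference of -0.43 from WT did not pass the test (adjusted p = 0.0573), nor did that of 0.39 between hGAS and GasKO (adjusted p = 0.0678). Of 12 genes of the MYC network, 1 fell, Mlx (-0.24, adjusted p = 0.0318), and none rose. Most of that list went the other way, with 8 differences above 0, 4 below 0 and a median of 0.10. Of 22 growth genes known as MYC targets that are outside ribosome assembly, 9 fell and none rose in GasKO mucosa (median -0.25). Over all genes tested, 5.48% fell in that comparison. Those with the smallest p-values were the lactate dehydrogenase gene Ldha (-0.25), Ctps for CTP synthesis (-0.49), Srm for spermidine synthesis (-0.52) and the mitochondrial chaperone gene Hspd1 (-0.26). None of 9 genes of the p53 response to nucleolar stress passed the test between GasKO and WT. At an unadjusted p under 0.05 there were 2 of the 9, near the 25.9% of all genes tested.

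The cell cycle lists had medians of opposite sign. Of all genes tested, 5.48% fell in GasKO mucosa and 6.63% rose. Of 29 S phase genes 5 fell in GasKO mucosa and none rose (median -0.22), among them Mcm2 (-0.63), a subunit of the replicative helicase, Pold1 (-0.46), Uhrf1 (-0.48) and Mcm5 (-0.29). Their mean level was 7.34 to 7.48 on the hGAS arrays, 7.29 to 7.40 on the GasKO arrays and 7.51 to 7.68 on the WT arrays. Of 28 mitosis genes 1 rose in GasKO, the kinase gene Plk1 (0.62, adjusted p = 0.0288), none fell, and the median was 0.22. Their mean level was 8.70, 8.24 and 8.54 on the hGAS arrays, 8.69, 8.60 and 8.56 on the GasKO arrays and 8.69, 8.16 and 8.33 on the WT arrays, so WT 1 lay level with the highest GasKO array and the lower WT values were those of WT 2 and WT 3. The part of these lists in the lower level of biogenesis genes was not tested.

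Markers of other cell types were read beside all genes tested, of which 6.63% rose and 5.48% fell in GasKO mucosa. Of 11 B and plasma cell markers 7 rose and 1 fell in GasKO mucosa, with a mean level of 7.23 to 7.67 in hGAS, 8.58 to 8.93 in GasKO and 7.52 to 8.09 in WT. The smallest p-values were those of Derl3 (0.87), Jchain (1.64), Mzb1 (2.56) and Igha (0.95). Of 14 myeloid markers 5 rose and none fell, led by Cd74 (0.63), Cd163 (0.67), Lyz2 (0.52) and Mpeg1 (0.58), with a mean level of 8.29 to 8.65 in hGAS, 8.85 to 9.01 in GasKO and 8.51 to 8.60 in WT. Of 10 fibroblast markers 3 rose, Pdgfra (0.38), Dcn (0.26) and Col14a1 (0.25), and none fell (11.20 to 11.25 in hGAS, 11.24 to 11.36 in GasKO, 11.09 to 11.29 in WT). Of the 12 T cell markers matched, 11 were below the filter on low values, Cd3e, Cd4 and Cd8a among them. Of 20 colonocyte markers Guca2b (1.28) and Epcam (0.35) rose and Ceacam20 (-1.56) and Car4 (-0.31) fell. Of 14 goblet cell markers Spink4 (0.36) rose and Ern2 (-1.42) and Atoh1 (-0.24) fell. Of 14 stem cell markers Cd44 (0.24) rose and Lgr5 (-0.94) and Rgmb (-0.49) fell, and of 10 smooth muscle markers Synm (-0.38) fell. The smooth muscle share was near the 12.1% of all genes called in either direction. List medians were 0.00 for colonocyte, 0.09 for goblet, 0.02 for stem cell and -0.10 for smooth muscle markers. Differences above and below 0 numbered 10 and 10 for colonocyte, 9 and 5 for goblet, 8 and 6 for stem cell and 1 and 9 for smooth muscle markers. The smooth muscle list thus leaned below 0, while the others were mixed. Single called markers do not stand for their cell type. Colonocyte markers, at 12.39 to 12.45 in hGAS, 12.34 to 12.40 in GasKO and 12.21 to 12.44 in WT, were present in every group of this tissue. The part of other cell types in the lower level of the biogenesis genes was not tested.

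Arrays of one genotype correlated at 0.990 to 0.994 within hGAS, 0.994 to 0.997 within GasKO and 0.991 to 0.994 within WT, and array medians lay between 4.13 and 4.16. Gast, the gene deleted in GasKO mice, read near background in every group, at 1.95 to 1.96 in hGAS, 1.99 to 2.14 in GasKO and 1.93 to 1.97 in WT, so it does not check the labels in this tissue. The 3′ minus 5′ difference of the Gapdh control probe sets, a sign of RNA quality, was -0.15 to -0.07 in hGAS, -0.12 to -0.09 in GasKO and -0.18 to -0.14 in WT, and that of Actb was 0.88 to 0.94 in hGAS, 0.87 to 0.94 in GasKO and 0.76 to 0.89 in WT. The part of RNA quality in the results was not tested.

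The count of genes called between GasKO and WT varied with the arrays used, and the median moved little. Without WT 2, the WT array highest for most of these genes, 4 genes fell, and without WT 3 there were 9. Without GasKO 1, GasKO 2 or GasKO 3 there were 6, 6 and 7. The 4 genes Ddx21, Nop58, Ppan and Gnl3 were called in every alternative that held their probe set, including each fit without 1 array. Nop58, Ppan and Gnl3 have 1 probe set each, so settings that change the probe set could not alter their values. In the fits without 1 array the median of the 40 genes stayed between -0.28 and -0.19.

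**Figure D5:**
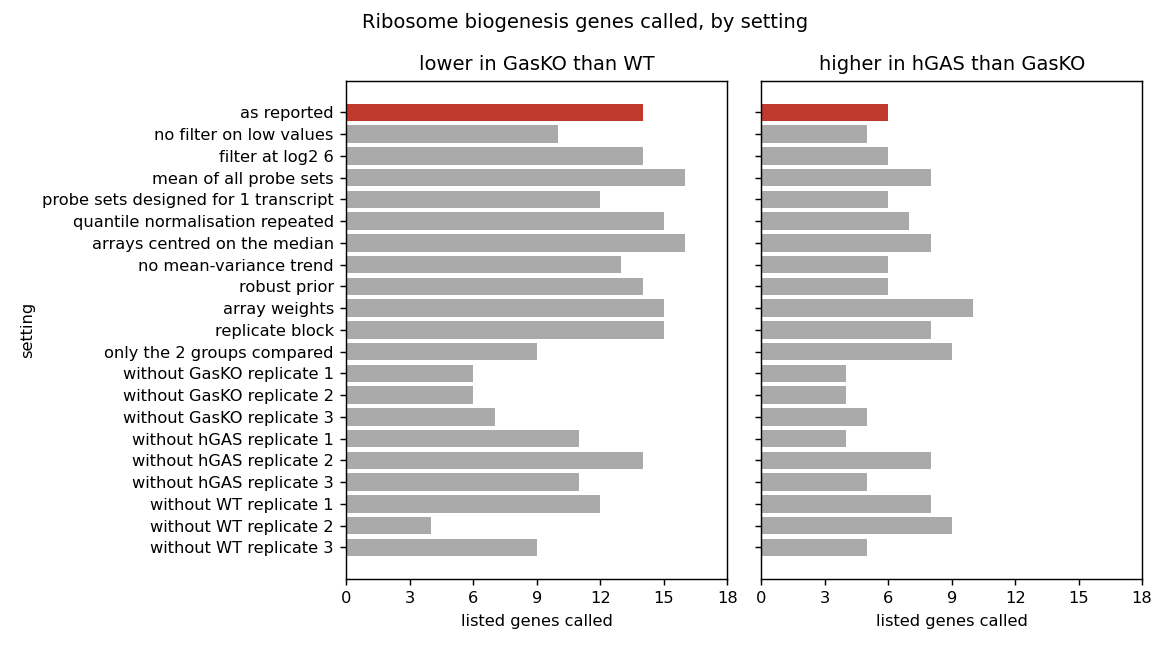
Number of genes on the list called at an adjusted p under 0.05 (horizontal axis) with the settings as reported (red) and under each alternative (grey), for GasKO against WT (left) and hGAS against GasKO (right). On the left the count runs from 4 without WT 2 to 16, and on the right from 4 to 10.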

How the data were processed

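Per the submitters' processing notes, the authors used GCRMA (a background correction by probe sequence followed by quantile normalisation and a summary over probes), and the deposited log2 values were used as given. Its version, and any genome build, are not given in the sources used here. The scanner files were not used here. Because quantile normalisation gives all arrays a common distribution, the differences are relative to the other genes of an array.

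Symbols were taken from the annotation of the platform, which paired 34958 of the 45101 probe sets with 1 gene, 932 with several and 9211 with none listed. Of several probe sets for a gene, that with the highest average was read. This gave 18194 genes, and 11274 genes with a log2 value of at least 4 on at least 3 arrays were tested. All 9 arrays entered a model of genotype alone in limma 3.58.1 in R 4.3.3 (lmFit, eBayes with a mean-variance trend). Residual degrees of freedom were 6 and prior ones 3.47. The 2-sided tests had Benjamini-Hochberg adjustment over the 11274 genes and calls at an adjusted p under 0.05. Probe sets beyond the one used per gene were tested in a separate limma fit over 19834 probe sets. The procedure was tested on simulated data. The number of arrays limits the precision.

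The 41 genes and the 20 related lists (428 entries, 378 matched) were chosen with earlier results of these data known. Every gene of the 41 is accounted for. Values of every array are given for genes called in a comparison and for others that show a contrast. Of each other list up to 4 called genes with the smallest p-values for GasKO against WT are named, and Myc always; second probe sets, Rcl1 in hGAS and the promoters printed were picked after seeing the values. Promoters came from RefSeq (GRCm38.p6).

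The labels number the replicates in each group. Deviations from the group means of same-numbered hGAS and GasKO arrays correlated at 0.117, 0.201 and 0.267 over genes, all above 0.1, so the numbers were taken to pair these arrays, from the data and not from the labels. Same-numbered arrays of GasKO and WT, and of hGAS and WT, did not all pass (lowest -0.0056 and 0.0838). Differently numbered arrays ran from -0.292 (GasKO 3 and WT 1) to 0.113 (GasKO 2 and WT 1), so some of these also passed 0.1. The replicate block took in all 9 arrays, WT among them, and the main fit had no block. The alternatives were 11 other settings and the fits without each of the 9 arrays. Python 3.11.15 with matplotlib 3.10.9 drew the figures.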

Additional observations from a re-analysis of the deposited data

How the results depend on the processing

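All 20 alternatives were run: 11 other settings of filter, probe set, scaling, fit and block, and 9 fits without 1 array. No call turned its direction in any of them, and between hGAS and WT no gene of the list was called in any. Of 1982 values of genes not called, 58 changed sign. Between GasKO and WT, 14 genes fell as reported. Fitting the GasKO and WT arrays alone gave 9, the fits without 1 array gave 4 to 14, and the other settings gave 10 to 16, all as falls. Between hGAS and GasKO, 6 genes rose as reported, 10 with array weights and 4 to 9 without 1 array. The F test called 9 genes, 14 with array weights and 3 to 11 without 1 array (3 without GasKO 2 and 4 without GasKO 3). The median of the list stayed within the spread between arrays everywhere. Without 1 array it ran from -0.08 to -0.01 for hGAS minus WT, from 0.15 to 0.20 for hGAS minus GasKO and from -0.28 to -0.19 for GasKO minus WT. Averaging probe sets added 4 calls between GasKO and WT, Mybbp1a (-0.23), Heatr1 (-0.33), Noc3l (-0.32) and Gnl2 (-0.26), and moved Nop56 to -0.49 and Dkc1 to -0.30. Probe sets designed for 1 transcript gave -0.66 for Nop56. The cause of these shifts was not tested. With the replicate number as a block, 15 genes were called between GasKO and WT, 12 of them among the 14, 8 between hGAS and GasKO and 12 by the F test. Of the same-numbered GasKO and WT arrays, numbers 1 and 3 deviated together (0.150 and 0.145) and number 2 did not (-0.0056). Probe sets near background, as those of Rrp9 and Rrp12, limit what can be seen of their genes.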
